A study of Homo sapiens with 12 samples.

Results

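The RNAs described here are 8 long non-coding RNAs (lncRNAs), PVT1, MALAT1, NEAT1, TUG1, KCNQ1OT1, MEG3, H19 and CRNDE, taken by their exact gene names from expression tables of 23621 genes in 2 ovarian cancer cell lines. The lines were KURAMOCHI and COV362, which model high-grade serous ovarian cancer and are called Ku and Cov on the plots. Cells labelled as untransduced controls were exposed for 6 hr to DMSO, to 50 nM THZ1 or to 250 nM THZ1, with 2 libraries per group and 12 libraries in all. THZ1 is a covalent inhibitor of CDK7, CDK12 and CDK13, kinases that phosphorylate RNA polymerase II and act in transcription initiation and elongation. KURAMOCHI was grown in RPMI and COV362 in DMEM, both with 10% serum, and nothing in the labels says whether the 2 libraries of a group came from separate cultures, so the tests measure only the spread between these libraries.

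Long non-coding RNAs are transcribed by RNA polymerase II, like messenger RNAs, but act as RNA. MALAT1 gathers in nuclear speckles, the bodies that hold splicing factors, and NEAT1 is the scaffold on which paraspeckles assemble. MALAT1 and the long isoform of NEAT1 have 3′ ends made by RNase P, which cuts at a tRNA-like structure, and are protected by a triple helix in place of a poly(A) tail, whereas the short isoform of NEAT1 is polyadenylated. TUG1 is a widely expressed spliced lncRNA, PVT1 is the neighbor of MYC on chromosome 8 and is often amplified with it, and CRNDE is raised in many tumors. H19, MEG3 and KCNQ1OT1 come from imprinted regions, where 1 parental allele is silenced. Several of these RNAs are known as long-lived or as nuclear, but neither half-life nor location within the cell was measured here. The libraries were made from polyadenylated RNA, so for MALAT1 and NEAT1 the values stand for the transcripts that this selection captured.

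The genomic positions are those of GRCh37, and that of PVT1 is given with its values. NEAT1 (ENSG00000245532, chromosome 11 from 65190245 to 65213011) and MALAT1 (ENSG00000251562, from 65265111 to 65275544) lie on the same strand with 52100 bases between them, and TALAM1 is annotated on the strand opposite to MALAT1. TUG1 (ENSG00000253352, chromosome 22 from 31365231 to 31375381) starts 471 bases from the start of MORC2, which is read in the other direction, and GENCODE annotates TUG1 as protein-coding. CRNDE (ENSG00000245694) spans 54879101 to 54963101 on chromosome 16. H19 (ENSG00000130600, 2016396 to 2025782) and KCNQ1OT1 (ENSG00000269821, 2618538 to 2721233) are both on the minus strand of chromosome 11, the latter inside KCNQ1 and opposite to it, and MEG3 (ENSG00000214548) spans 101245747 to 101327368 on chromosome 14.

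Promoter windows of 300 bases, from 250 bases before to 50 bases after a transcription start, are shown for MALAT1 and TUG1, which had log2 fold changes under -1 at the low dose in both lines, and for CRNDE, which was called in neither line at either dose. The RefSeq table held windows for 5 of the 8 lncRNAs, and not for NEAT1, which also had log2 fold changes under -1 at that dose in both lines, PVT1 or KCNQ1OT1. MALAT1 has 2 annotated starts. The sequences are from RefSeq on GRCh38.p14, a later build than the positions given before. Capitals mark matches on either strand, with no overlap between them, to TATAAA for the TATA box, to the letters of the CCAAT box, to GGGCGG for the GC box and to CACGTG for the E-box.
MALAT1, chr11:65497488-65497787, plus strand: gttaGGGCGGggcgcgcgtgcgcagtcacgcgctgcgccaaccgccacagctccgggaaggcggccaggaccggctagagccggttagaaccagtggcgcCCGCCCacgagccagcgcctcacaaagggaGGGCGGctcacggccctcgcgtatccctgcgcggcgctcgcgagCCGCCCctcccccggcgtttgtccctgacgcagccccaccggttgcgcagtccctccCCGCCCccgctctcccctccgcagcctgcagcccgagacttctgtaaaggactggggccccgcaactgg
MALAT1, chr11:65498795-65499094, plus strand: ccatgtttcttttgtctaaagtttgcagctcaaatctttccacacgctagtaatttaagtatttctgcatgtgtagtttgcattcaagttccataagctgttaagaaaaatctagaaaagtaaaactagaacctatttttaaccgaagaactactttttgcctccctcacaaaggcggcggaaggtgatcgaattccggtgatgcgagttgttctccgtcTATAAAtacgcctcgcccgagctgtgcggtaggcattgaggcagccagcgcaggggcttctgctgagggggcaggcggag
TUG1, chr22:30969015-30969314, plus strand: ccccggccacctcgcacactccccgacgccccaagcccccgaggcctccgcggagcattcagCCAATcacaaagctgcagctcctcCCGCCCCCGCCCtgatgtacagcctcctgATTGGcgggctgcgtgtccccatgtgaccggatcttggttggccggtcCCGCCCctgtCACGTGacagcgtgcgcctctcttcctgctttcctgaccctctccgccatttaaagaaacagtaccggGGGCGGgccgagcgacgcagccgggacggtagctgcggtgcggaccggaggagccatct
CRNDE, chr16:54928837-54929136, minus strand: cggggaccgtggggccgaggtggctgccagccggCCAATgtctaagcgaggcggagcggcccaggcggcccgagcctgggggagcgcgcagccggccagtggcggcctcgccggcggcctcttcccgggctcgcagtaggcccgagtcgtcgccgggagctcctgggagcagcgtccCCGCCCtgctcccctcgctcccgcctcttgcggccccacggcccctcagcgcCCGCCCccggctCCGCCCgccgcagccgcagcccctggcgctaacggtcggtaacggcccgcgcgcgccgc
The upstream MALAT1 window held 5 GC boxes and was 73.7% G and C, whereas the downstream one held a single TATA box and was 46% G and C. The TUG1 window held 2 CCAAT boxes, 4 GC boxes and 1 E-box at 67.7% G and C. The CRNDE window held 1 CCAAT box and 3 GC boxes at 80% G and C. Of 35116 promoter windows of this length, 11.5% held at least 1 TATAAA, 34.6% CCAAT, 45.0% GGGCGG and 7.26% CACGTG.

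Levels are given in FPKM, a count of fragments divided by transcript length and library size, which the authors scaled by RNA spike-ins added in proportion to cell number, so that a loss of RNA per cell shows as a lower value. A gene was taken as active above 1 FPKM in at least 1 of the 12 libraries, which left 14251 genes. Among the 8 lncRNAs, PVT1, MALAT1, NEAT1, TUG1 and CRNDE were active in all libraries. H19 passed only through the first DMSO and the first 50 nM library of KURAMOCHI, and KCNQ1OT1 and MEG3 never passed. Groups were compared within each line with limma on log2(FPKM + 1), and a gene was called at a Benjamini-Hochberg adjusted p under 0.001 with a log2 fold change beyond 0.5. An exact permutation test of 2 libraries against 2 cannot go below p = 0.33, so single values rest on the limma fit.

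The epithelial markers KRT8 and KRT18 were high in both lines, KRT8 at 2432 FPKM in KURAMOCHI and 1133 FPKM in COV362 under DMSO, and PAX8, which marks the Müllerian lineage, was at 136.1 and 124.1 FPKM. Of 10 ovarian epithelial markers, 8 or 9 exceeded 1 FPKM in every library. WT1 did not reach 1 FPKM in COV362, and MUC16 and ESR1 did not in KURAMOCHI. Of 4 immune markers, 1 or 2 exceeded 1 FPKM in each library, led by CD68 at 2.31 FPKM in KURAMOCHI and 4.12 FPKM in COV362 under DMSO, while CD3E was at most at 0.119 and PTPRC at 0.299 FPKM. Of 3 endothelial markers, VWF in KURAMOCHI at 2.66 FPKM and CDH5 in both lines, at 8.23 and 7.75 FPKM, exceeded 1 FPKM under DMSO. Of 4 fibroblast markers, COL1A1 was at 2.53 and 3.17 FPKM and COL1A2 at 42.2 FPKM in COV362 alone, and DCN was at most at 0.128 FPKM. The number of fragments behind each value is not known from FPKM.

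**Figure D1:**
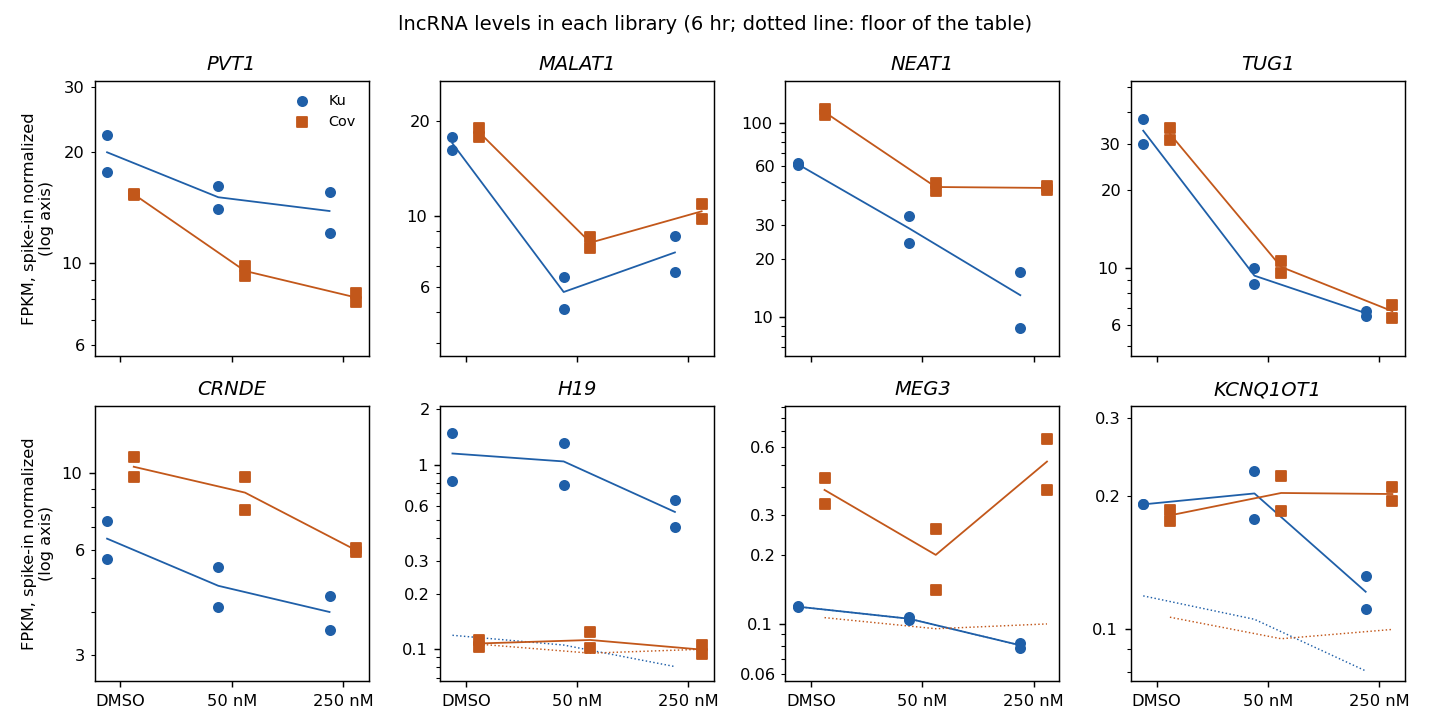
FPKM (log axis) of each lncRNA in the 12 libraries by treatment, with circles for KURAMOCHI (Ku), squares for COV362 (Cov), lines through the group means and dotted lines at the low value that unexpressed genes share. TUG1, MALAT1 and NEAT1 were lower at 50 nM than in DMSO in every library, MALAT1 was higher at 250 nM than at 50 nM, and H19, MEG3 and KCNQ1OT1 lay near the dotted lines apart from H19 in KURAMOCHI and MEG3 in COV362.

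In untreated cells the order of the levels per length was led by NEAT1 in both lines. NEAT1 was at 61.5 ± 1.05 FPKM (SD, n = 2) in KURAMOCHI and 114.3 ± 5.33 FPKM in COV362, and TUG1 followed at 33.8 ± 5.33 and 32.9 ± 2.48 FPKM. PVT1 and MALAT1 came next and their libraries overlapped in KURAMOCHI, where PVT1 was at 19.9 ± 3.21 and MALAT1 at 17.0 ± 1.15 FPKM. In COV362 MALAT1 stood above PVT1 in both libraries, at 18.4 ± 0.901 against 15.3 ± 0.0883 FPKM. CRNDE was lowest of the 5 active in all libraries, at 6.48 ± 1.14 FPKM in KURAMOCHI and 10.4 ± 0.976 FPKM in COV362. The order was another one under THZ1. At 250 nM in KURAMOCHI PVT1, at 13.8 ± 2.51 FPKM, and NEAT1, at 13.0 ± 5.85 FPKM, overlapped at the top. In COV362 NEAT1 kept the first place and TUG1 moved below MALAT1 and PVT1, with 6.79 ± 0.565 FPKM. The tables of the 2 lines were normalized separately, and no difference between the lines was tested.

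At 50 nM THZ1 MALAT1, NEAT1 and TUG1 had the lowest log2 fold changes of the 6 active lncRNAs in both lines. CRNDE was called in neither line. H19 is counted among the 6 as a description. Of the 5 active in all libraries, 1 was called lower in KURAMOCHI and 4 in COV362. In KURAMOCHI 1 of the 6 active lncRNAs, TUG1, was called lower and none higher, where 11.3% of the 14251 active genes were called lower and 0.0842% higher. That share of genes called lower dropped to between 0.0421% and 0.919% when any 1 library was left out. In COV362 TUG1, NEAT1, MALAT1 and PVT1, 4 of the 6, were called lower and none higher, against 70.5% lower and 0.0772% higher of all active genes, of which 30.3% were lower without the second DMSO library. The median log2 fold change of the 5 lncRNAs active in all libraries was -1.09 in KURAMOCHI, beside -0.40 for all active genes, and -1.06 in COV362, beside -0.85. With H19, which was near the level of unexpressed genes in COV362 and had little room to be lower there, the medians were -0.74 and -0.85. In whole-culture RNA fewer cells that express a gene and less of its RNA per expressing cell cannot be told apart. At 250 nM KURAMOCHI had 2 of the 6 called lower, TUG1 and NEAT1, against a background of 68.6%, and COV362 had the same 4 as at 50 nM, against 84% of active genes. The KURAMOCHI share was 42.7% without the first 250 nM library and 44.3% without the second. None was called higher at 250 nM, where the background was 0.0491% and 0.105%. MALAT1, NEAT1, TUG1 and PVT1 lay below DMSO without overlap of the libraries at both doses in both lines, as 71.9% of active genes did. In single comparisons this share was 75.8% and 95.9% at 50 and 250 nM in KURAMOCHI and 95.7% and 95.6% in COV362. At 250 nM the median of the 5 was -1.05 in KURAMOCHI and -0.85 in COV362, and with H19 it was -0.82 and -0.81, beside -1.11 and -1.31 for all active genes.

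**Figure D2:**
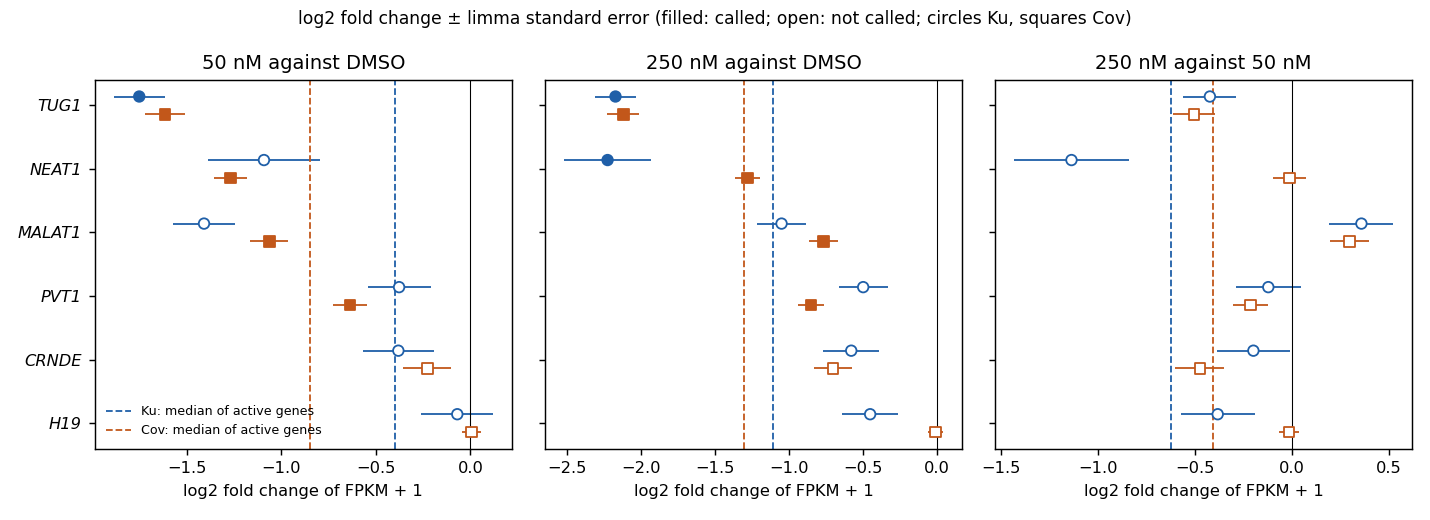
Log2 fold change of FPKM + 1 with the limma standard error for the 6 active lncRNAs in the 3 comparisons, with circles for KURAMOCHI, squares for COV362, filled symbols for called genes and dashed lines at the median of all active genes. TUG1 lay left of both dashed lines against DMSO at both doses, CRNDE and H19 lay near or right of them, and MALAT1 was the one lncRNA right of 0 in both lines from 50 to 250 nM.

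TUG1 showed the most regular loss. In KURAMOCHI its libraries read 37.6 and 30.1 FPKM in DMSO, 9.96 and 8.66 at 50 nM and 6.82 and 6.52 at 250 nM. In COV362 they read 31.2 and 34.7, then 9.51 and 10.6, then 7.19 and 6.39 FPKM. No library of one treatment overlapped the next in either line, an order that 66.7% of active genes showed in KURAMOCHI and 73.8% in COV362. The log2 fold change at 50 nM was -1.75 in KURAMOCHI (standard error 0.136, adjusted p = 0.000412) and -1.62 in COV362 (standard error 0.107, adjusted p = 2.42e-05), leaving 27.5% and 30.6% of the DMSO level. Only 2.69% of active genes in KURAMOCHI and 6.85% in COV362 had a lower log2 fold change at this dose. At 250 nM the log2 fold changes were -2.18 (adjusted p = 2.43e-05) and -2.12 (adjusted p = 1.68e-06), and 13.5% and 16.9% of active genes lay lower. The further step from 50 to 250 nM was -0.42 (adjusted p = 0.0308) and -0.51 (adjusted p = 0.00558), not called. The KURAMOCHI call at 50 nM was lost when any 1 of the 6 libraries was left out, with adjusted p from 0.00121 to 0.00345, while the fold change stayed between -1.91 and -1.59.

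MORC2, a chromatin ATPase gene whose start faces that of TUG1 and which was singled out after its values were seen, was read from 20.1 to 4.77 to 3.58 FPKM in KURAMOCHI and from 15.0 to 2.55 to 2.61 FPKM in COV362 (group means at DMSO, 50 and 250 nM). Its log2 fold changes were -1.87 and -2.20 in KURAMOCHI and -2.18 and -2.15 in COV362, called lower in all 4. Among the active genes, the 3 with the pattern most like TUG1 across the 12 libraries were PBX2, a homeobox transcription factor gene, ZFP69B, a zinc finger gene, and TRMT61B, a mitochondrial tRNA methyltransferase gene. Their root mean square differences from TUG1, taken on log2(FPKM + 1) centred on DMSO, were 0.0899, 0.0908 and 0.0932, against a median of 0.889 over active genes.

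MALAT1 was lowest at 50 nM and stood higher at 250 nM, in both lines, with DMSO above both. In KURAMOCHI it read 17.8 and 16.1 FPKM in DMSO, 6.47 and 5.11 at 50 nM and 6.72 and 8.71 at 250 nM. In COV362 it read 17.7 and 19, then 7.95 and 8.60, then 11 and 9.81 FPKM. Both THZ1 doses lay below DMSO without overlap, and both 250 nM libraries lay above both 50 nM libraries in each line, by a narrow margin in KURAMOCHI. At 50 nM the log2 fold change was -1.41 in KURAMOCHI (standard error 0.165), where the adjusted p of 0.0012 missed the threshold, and -1.06 in COV362 (adjusted p = 6.46e-05), called. At 250 nM it was -1.05 in KURAMOCHI (adjusted p = 0.00109), just short of a call, and -0.77 in COV362 (adjusted p = 0.000173), called. COV362 kept the call at 250 nM only with all of its DMSO libraries and the second 250 nM library in the fit, since leaving out any 1 of these 3 gave adjusted p from 0.00129 to 0.0024. Without the second DMSO library of COV362, MALAT1 and PVT1 also lost their calls at 50 nM, MALAT1 at adjusted p = 0.00104 and PVT1 at adjusted p = 0.00425.

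From 50 to 250 nM MALAT1 differed by 0.36 on the log2 scale in KURAMOCHI (standard error 0.165, adjusted p = 0.0979) and by 0.29 in COV362 (standard error 0.0999, adjusted p = 0.0377), neither of which was called. The KURAMOCHI value was 0.21 without the second 50 nM library and 0.19 without the second 250 nM library. Over this step 36% of active genes in KURAMOCHI and 24.4% in COV362 were called lower at 250 nM than at 50 nM, and 0.0421% and 0.0842% higher. The share called lower dropped in KURAMOCHI to between 5.55% and 11.2% without 1 of the 50 or 250 nM libraries, and in COV362 to 15.4% without either DMSO library and to 11.9% and 10.7% without the first and the second 250 nM library. MALAT1 lay above 99.4% of active genes in KURAMOCHI and above 98.3% in COV362 in this comparison. Higher values in both 250 nM libraries than in both 50 nM libraries were seen for 1.26% of active genes in KURAMOCHI, for 4.76% in COV362 and for 0.4%, or 57 genes, in both lines. None of the other 5 active lncRNAs was among them. The pattern most like that of MALAT1 was shown by SIRT5, a mitochondrial deacylase gene, at a root mean square difference of 0.115, then OPN3, an opsin gene, at 0.150 and SLC1A3, a glutamate transporter gene, at 0.155, with a median of 0.632 over active genes.

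**Figure D3:**
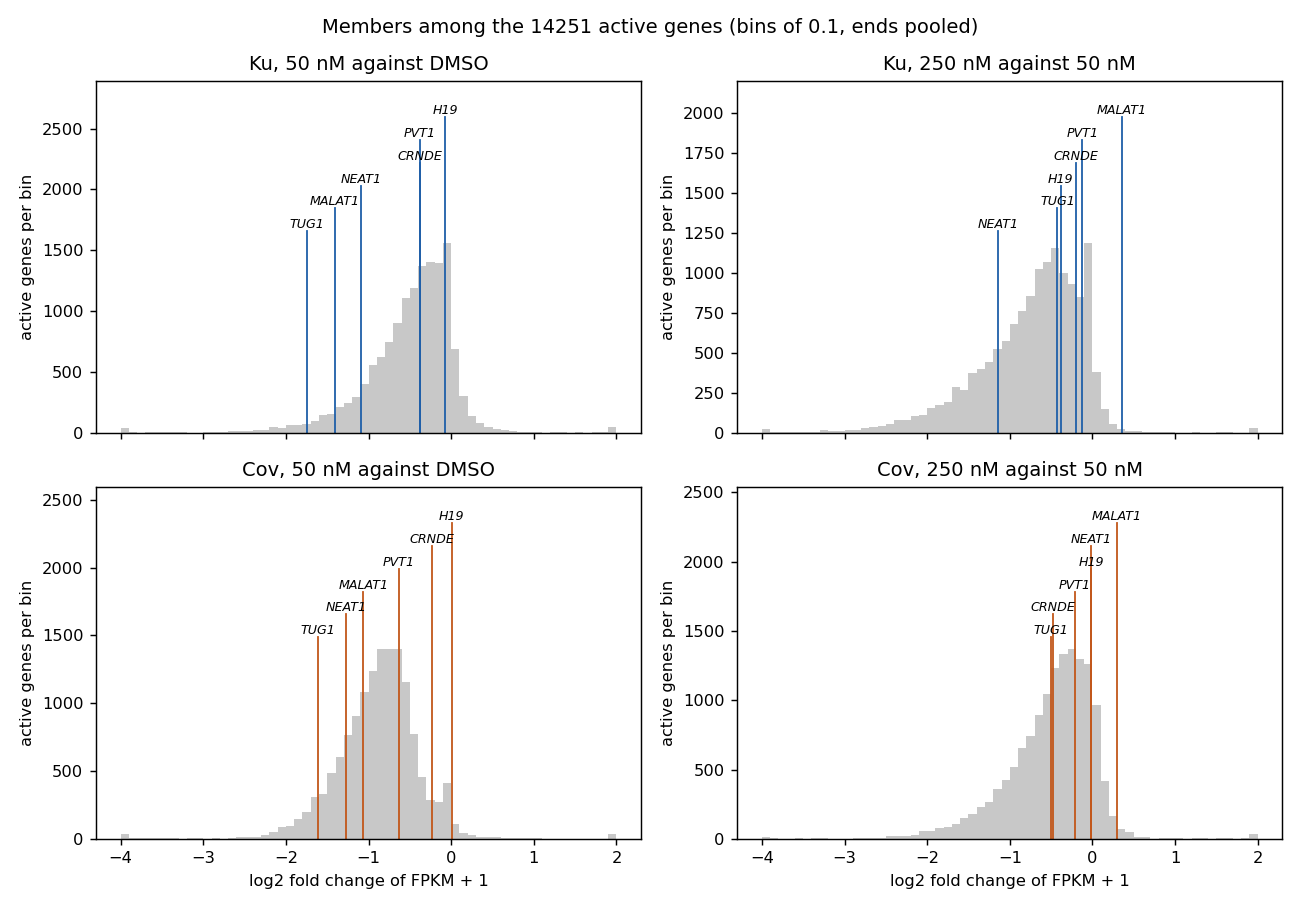
Histograms of the log2 fold change of FPKM + 1 over the 14251 active genes (vertical axis, genes per bin of 0.1) with lines at the 6 active lncRNAs, for 50 nM against DMSO (left) and 250 nM against 50 nM (right) in KURAMOCHI (top) and COV362 (bottom). TUG1 and MALAT1 lay in the lower tail of KURAMOCHI at 50 nM, with 2.69% and 5.68% of genes below them, and MALAT1 lay in the upper tail of both lines from 50 to 250 nM.

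NEAT1, the paraspeckle scaffold, was lower in every THZ1 library than in DMSO. In KURAMOCHI it read 60.7 and 62.2 FPKM in DMSO, 33.3 and 24.0 at 50 nM and 8.82 and 17.1 at 250 nM, with each treatment below the one before. In COV362 it read 110.5 and 118.1, then 44.7 and 49.0, then 47.3 and 45.4 FPKM, so that the 2 doses overlapped, and whether the lines differ in this step was not tested. At 50 nM the log2 fold change was -1.09 in KURAMOCHI (standard error 0.297, adjusted p = 0.0228), not called, and -1.27 in COV362 (standard error 0.0858, adjusted p = 2.53e-05), called. At 250 nM it was -2.23 in KURAMOCHI (adjusted p = 0.000508) and -1.28 in COV362 (adjusted p = 5.23e-06), both called on the spike-in scale. In COV362 the value was 0.77 with the libraries scaled to an equal median and 0.31 with the median of ratios. The KURAMOCHI call was lost without the first DMSO library, at adjusted p = 0.00427, and without the second, at adjusted p = 0.00404. From 50 to 250 nM the value was -1.14 in KURAMOCHI (adjusted p = 0.0143) and -0.01 in COV362 (adjusted p = 0.905).

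A separate row of the tables, MIR612, is a microRNA gene of 100 bases annotated inside NEAT1. It counted as an active gene through 3 libraries alone and read 51.4 and 160.7 FPKM in the 250 nM libraries of KURAMOCHI and 210.9 FPKM in the second 250 nM library of COV362, but 0.0965 FPKM in the first and at most 0.151 FPKM in the DMSO and 50 nM libraries. Its part in the NEAT1 values was not tested. The genes with the pattern most like NEAT1 were SNHG1, the host gene of several small nucleolar RNAs, at a root mean square difference of 0.183, then CIC, a transcriptional repressor gene, at 0.188 and ZNF141, a zinc finger gene, at 0.194, beside a median of 0.703.

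PVT1 (ENSG00000249859), which lies on the plus strand of chromosome 8 from 128806772 to 129199347 and begins 51575 bases beyond the end of MYC, had log2 fold changes closer to 0 than those of TUG1 and NEAT1 at both doses in both lines. In KURAMOCHI it read 22.2 and 17.7 FPKM in DMSO, 16.1 and 14 at 50 nM and 12 and 15.6 at 250 nM. In COV362 it read 15.3 and 15.4, then 9.79 and 9.23, then 7.84 and 8.27 FPKM. The treated libraries lay below DMSO in both lines, while the 2 doses overlapped in KURAMOCHI and not in COV362. At 50 nM the log2 fold change was -0.38 in KURAMOCHI (adjusted p = 0.0998), not called, and -0.64 in COV362 (standard error 0.0896, adjusted p = 0.000368), called. This COV362 call was lost without either DMSO library (adjusted p = 0.00344 and 0.00425) and without the second 50 nM library (adjusted p = 0.00143). At 250 nM PVT1 left 69.3% of its DMSO level in KURAMOCHI and 52.5% in COV362, where it was called lower at a log2 fold change of -0.85 (adjusted p = 5.23e-05). At this dose 82.3% of active genes in KURAMOCHI and 75.2% in COV362 had a lower log2 fold change than PVT1.

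MYC, the transcription factor gene beside PVT1, went from 78.2 to 50.2 to 3.21 FPKM in KURAMOCHI and from 172.8 to 106.0 to 43.5 FPKM in COV362. Its difference at 50 nM in KURAMOCHI, a log2 fold change of -0.63 with adjusted p = 0.00192, was not called, and the other 3 changes against DMSO were. From 50 to 250 nM MYC changed by -3.61 in KURAMOCHI and -1.26 in COV362 on the log2 scale, both called lower, beside -0.12 (adjusted p = 0.529) and -0.21 (adjusted p = 0.0747) for PVT1, neither called. The microRNA rows MIR1204 to MIR1208, named for genes of the PVT1 locus, held the value that unexpressed genes share throughout. The patterns most like PVT1 were those of GPR64, an adhesion receptor gene, SORCS2, a sortilin family receptor gene, and NID2, a basement membrane protein gene, at root mean square differences of 0.0766, 0.0866 and 0.0873, beside a median of 0.456.

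CRNDE was called in no comparison. In KURAMOCHI it read 7.28 and 5.67 FPKM in DMSO, 5.38 and 4.11 at 50 nM and 4.44 and 3.54 at 250 nM. In COV362 it read 9.72 and 11.1, then 7.80 and 9.76, then 5.92 and 6.07 FPKM. At 50 nM the libraries overlapped with DMSO in COV362, while at 250 nM they lay below DMSO in both lines. The log2 fold change at 250 nM was -0.58 in KURAMOCHI (standard error 0.189, adjusted p = 0.0257) and -0.70 in COV362 (standard error 0.127, adjusted p = 0.00111), the latter just short of the threshold, and without either 50 nM library of COV362 it was called, at adjusted p = 0.00018 and 0.000181. At 50 nM in COV362 92.8% of active genes had a lower log2 fold change than CRNDE. The nearest patterns were those of RAP1GDS1, a guanine nucleotide exchange factor gene, CIB2, a calcium-binding protein gene, and PDLIM3, a cytoskeletal adaptor gene, at 0.0837, 0.113 and 0.117, beside a median of 0.515. In COV362 under DMSO these genes were at 1.70, 8.99 and 1.08 FPKM. At the lowest of these levels the added 1 FPKM shrinks the log2 fold changes.

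The RNAs from imprinted regions were scarce. Unexpressed genes share 1 low value in each library, the most frequent one, between 0.0783 and 0.119 FPKM, held by 5276 genes in KURAMOCHI and 4896 in COV362. H19 in KURAMOCHI read 1.48 and 0.815 FPKM in DMSO, 1.31 and 0.777 at 50 nM and 0.647 and 0.461 at 250 nM, so that DMSO overlapped with 50 nM but not with 250 nM. The group means were 1.15, 1.04 and 0.554 FPKM. Since H19 counted as active only through 2 of these libraries, one of them in DMSO, its values are given as a description. In COV362 H19 lay between 0.0939 and 0.123 FPKM, near this shared value. IGF2, the growth factor gene beside H19, was at 167.3, 147.6 and 105.9 FPKM in KURAMOCHI and was also near it in COV362.

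MEG3 held this shared value in all 6 KURAMOCHI libraries. In COV362 it read 0.335 and 0.439 FPKM in DMSO, 0.141 and 0.260 at 50 nM and 0.386 and 0.646 at 250 nM, so that both 50 nM libraries were the lowest. KCNQ1OT1 read 0.191 and 0.191, 0.228 and 0.177, and 0.111 and 0.132 FPKM in KURAMOCHI and lay between 0.175 and 0.221 FPKM in every COV362 library. Neither gene was tested, as neither exceeded 1 FPKM. KCNQ1, the potassium channel gene that contains KCNQ1OT1 on its other strand, was at 0.132 and 0.155 FPKM in DMSO.

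The proteins of paraspeckles and nuclear speckles, the bodies that hold NEAT1 and MALAT1, are encoded by messenger RNAs that were also measured. Of 13 paraspeckle protein genes, 3 were called lower in KURAMOCHI and 12 in COV362 at 50 nM, and all 13 were in both lines at 250 nM, with none higher. Of all active genes 11.3% in KURAMOCHI and 70.5% in COV362 were called lower at 50 nM, and 68.6% and 84% at 250 nM, shares that drop without single libraries as given above. Their median log2 fold change at 50 nM was -0.28 in KURAMOCHI and -0.79 in COV362, beside -0.40 and -0.85 for all active genes, and at 250 nM it was -1.15 and -1.46, beside -1.11 and -1.31. SFPQ, a core paraspeckle RNA-binding protein gene, was called in all 4 comparisons, at -0.62 and -1.27 in KURAMOCHI and at -0.96 and -1.79 in COV362. NONO, which encodes the partner of SFPQ, was at -0.13 (adjusted p = 0.181) in KURAMOCHI at 50 nM and fell by 0.69 there at 250 nM. HNRNPK, the gene of a further RNA-binding component, was at -0.04 in KURAMOCHI at 50 nM (adjusted p = 0.69), not called, and at -0.61 at 250 nM, called lower.

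Of 14 nuclear speckle protein genes, 3 in KURAMOCHI and 14 in COV362 were called lower at 50 nM, and 12 and 14 at 250 nM, none higher, where the shares of all active genes were 11.3% and 70.5%, and 68.6% and 84%. The median log2 fold changes were -0.64 and -1.01 at 50 nM, beside -0.40 and -0.85 for all active genes, and -1.77 and -1.85 at 250 nM, beside -1.11 and -1.31. SRSF3, a splicing factor gene, was called in all 4 comparisons, from -1.70 to -2.40 in KURAMOCHI and from -1.68 to -2.44 in COV362. SRSF2, SRSF5 and RNPS1, which also encode splicing factors, were not called in KURAMOCHI at 50 nM, at -0.55, -0.68 and -0.56, and were called lower at 250 nM, at -1.80, -2.22 and -1.98.

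The proteins that cut or bind the 3′ ends of MALAT1 and the long NEAT1 isoform were represented by 12 genes, those of RNase P proteins, ELAC2 for RNase Z, and METTL16, which binds the MALAT1 triple helix. At 50 nM 2 in KURAMOCHI and 9 in COV362 were called lower, and at 250 nM all 12 were in both lines, none higher, against 11.3% and 70.5% and then 68.6% and 84% of active genes. The median log2 fold change at 250 nM, -1.83 in KURAMOCHI and -2.003 in COV362, was lower than that of all active genes, -1.11 and -1.31. POP7, an RNase P subunit gene, had log2 fold changes of -3.34 in KURAMOCHI and -3.002 in COV362 at 250 nM, called lower, from 72.5 to 6.24 FPKM and from 117.2 to 13.8 FPKM. RPP21, RPP30 and POP4, further subunit genes, were at -1.61, -1.41 and -1.496 in KURAMOCHI and at -1.11, -1.67 and -1.62 in COV362 at that dose, called lower.

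Of 30 other lncRNA names, among which CYTOR and LINC00152 stand for the same gene, 28 were in the tables and 24 were active. Those called lower were 3 in KURAMOCHI and 15 in COV362 at 50 nM, and 14 and 22 at 250 nM, with none higher. These counts lay near the shares of all active genes, 11.3% and 70.5% at 50 nM and 68.6% and 84% at 250 nM. UCA1, TP53TG1 and HOTAIRM1, at 0.119, 0.205 and 0.316 FPKM in KURAMOCHI under DMSO, had little room to be lower there. The median log2 fold changes of the 24 were -0.56 and -0.77 at 50 nM and -0.85 and -1.08 at 250 nM. The 4 most abundant were ZFAS1, SNHG5 and GAS5, host genes of small nucleolar RNAs, and LINC00152. GAS5 was called lower in 3 of the 4 comparisons with DMSO, with -0.90 in KURAMOCHI and -1.35 in COV362 at 250 nM. ZFAS1 was at -0.08 (adjusted p = 0.57) in KURAMOCHI at 250 nM, 402.1 FPKM in DMSO against 376.3 FPKM, and fell by 0.96 in COV362. SNHG5 was at -0.29 (adjusted p = 0.0413) in KURAMOCHI at 250 nM, not called, and fell by 0.97 in COV362. LINC00152 was at 0.23 (adjusted p = 0.0573) in KURAMOCHI at 50 nM and fell by 0.71 there at 250 nM.

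Of 18 genes beside the 8 lncRNAs, 11 were active. KURAMOCHI had 1 of these lower by the same call at 50 nM and 9 at 250 nM, COV362 had 5 and then 6, and none was higher. Of all active genes 11.3% and then 68.6% were called lower in KURAMOCHI, and 70.5% and then 84% in COV362. IGF2 and SLC22A18, at 0.177 and 0.290 FPKM in COV362 under DMSO, had little room to be lower there. MRPL23, a mitochondrial ribosome gene beside H19, was at -0.89 in KURAMOCHI and -0.79 in COV362 at 250 nM, called lower, and IGF2 fell by 0.66 in KURAMOCHI at that dose.

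The direction of most changes depended on the scale of the libraries. On the deposited spike-in scale the calls at 250 nM were 9774 lower and 7 higher in KURAMOCHI and 11971 and 15 in COV362. With the libraries scaled to an equal median the calls were 1683 lower and 3920 higher in KURAMOCHI and 1619 and 3811 in COV362, and the median log2 fold change of active genes moved from -1.11 to 0.34 and from -1.31 to 0.38. At 50 nM the same scaling turned 1607 lower and 12 higher into 78 and 14 in KURAMOCHI, and 10042 and 11 into 19 and 13 in COV362. TUG1 was below DMSO at both doses in both lines under each of the 4 scalings, with the smallest change, -0.20, in COV362 at 250 nM under equal medians. PVT1 and CRNDE were below DMSO at 250 nM on the spike-in scale only and above it under the other 3 scalings in both lines. MALAT1 at 250 nM was above DMSO under equal medians, at 0.80 in KURAMOCHI and 1.21 in COV362, and with the median of ratios, at 0.30 and 0.76. With equal totals it was above DMSO in COV362, at 0.21, so that in COV362 it lay below DMSO on the spike-in scale only. NEAT1 at 250 nM was below DMSO under each scaling in KURAMOCHI, and in COV362 on the spike-in scale and with equal totals only. MALAT1 was higher at 250 nM than at 50 nM on the spike-in scale in both lines. The other 3 scalings raise the 250 nM libraries more than the 50 nM ones, so they could only enlarge this difference.

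**Figure D4:**
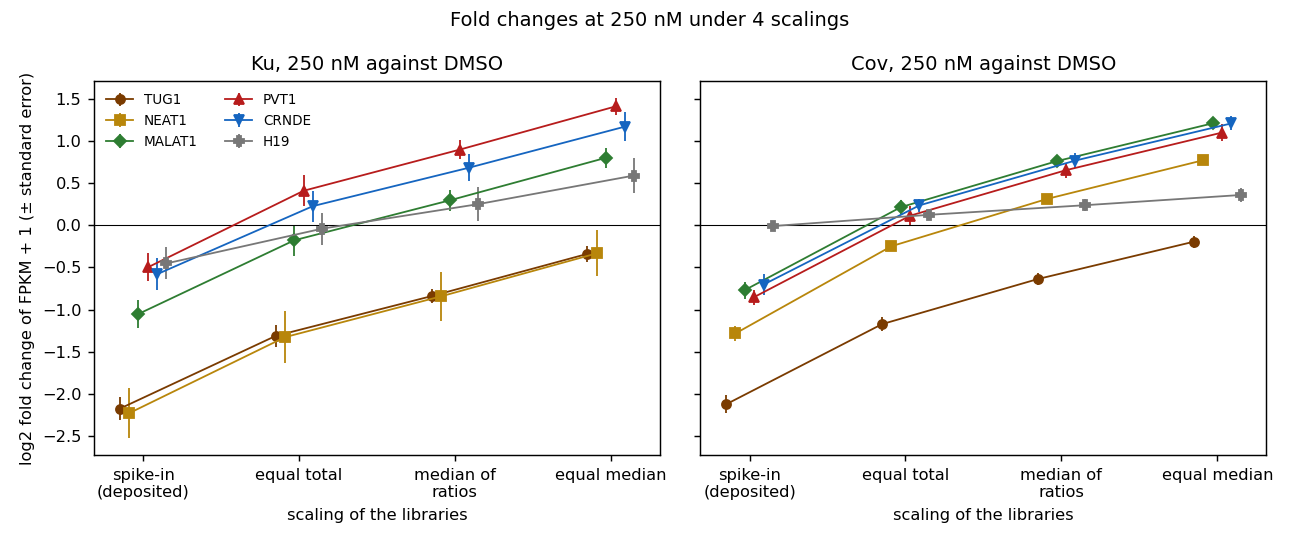
Log2 fold change of FPKM + 1 at 250 nM against DMSO with its limma standard error for the 6 active lncRNAs, in KURAMOCHI (left) and COV362 (right), with the libraries on the deposited spike-in scale and scaled to an equal total, by the median of ratios or to an equal median; lines join the values of 1 gene. TUG1 lay below 0 in all 4 positions in both lines, and PVT1 and CRNDE lay below 0 on the spike-in scale only.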

How the data were processed

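RNA of 12 libraries (polyadenylated, stranded, single-end 75-base reads) was quantified by the authors, who aligned with HISAT to hg19, ran the Cufflinks tools and deposited FPKM values per gene, normalized with Cuffnorm and spike-ins added per cell number, in 1 table per line. The annotation and strand setting of the counting are not given in the sources used here, so reads of overlapping genes cannot be told apart, and the depth of each library is unknown. Spike-in rows were left out. For each line, limma 3.58.1 (R 4.3.3, eBayes with trend) was run on log2(FPKM + 1) of its 6 libraries, on genes above 1 FPKM in at least 1 library. All p-values are two-sided and adjusted by Benjamini-Hochberg over the 14251 active genes. The fit was tested on simulated data. Positions are from GENCODE on GRCh37, matched by gene name. Named were all 8 lncRNAs, MYC, up to 4 genes a list (highest mean FPKM in DMSO) and the 3 active genes nearest in pattern, of which some are not reported here. MORC2, KCNQ1, MIR612 and the marker genes with values were added after their values were seen. The lncRNAs and lists were chosen with earlier results of these data known. Alternatives were other pseudocounts, filters, scalings, thresholds and fits, a replicate block, and leaving out each library.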

Additional observations from a re-analysis of the deposited data

Results flagged for a closer look

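KCNQ1OT1 at 250 nM moved in opposite directions from DMSO in the 2 lines, lower in both libraries of KURAMOCHI (0.121 against 0.191 FPKM) and higher in both of COV362 (0.202 against 0.181 FPKM). MEG3 from 50 to 250 nM was lower in both libraries of KURAMOCHI (0.0803 against 0.105 FPKM), where it held the low value that unexpressed genes share in each library, and higher in both of COV362 (0.516 against 0.201 FPKM). That low value was itself lower at 250 nM than in DMSO in KURAMOCHI: relative to it, KCNQ1OT1 stood at 1.62 and 1.60 times in DMSO and 1.42 and 1.60 times at 250 nM there, and at 1.72 and 1.68 and then 2.06 and 1.99 times in COV362. Neither difference between the lines was tested, and all of these values are below 1 FPKM.

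The MIR612 row, inside NEAT1, is among the active genes but is none of the 8 lncRNAs, and it held signal above its DMSO level in the 2 KURAMOCHI libraries at 250 nM, 51.4 and 160.7 FPKM, and in the second COV362 library at 250 nM, 210.9 FPKM, while the first COV362 library at that dose was at 0.0965 FPKM.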

How the results depend on the processing

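The counts of lncRNAs called depended on the scaling. Lower than DMSO at 50 nM in KURAMOCHI there were 0 with equal medians instead of 1 (background 0.547%), and at 250 nM 0 with equal medians (background 11.8%), 1 with the median of ratios (19.3%) and 1 with equal totals (27.1%) instead of 2. In COV362 the 4 lower at 50 nM became 0, 0 and 2 under these scalings (background 0.133%, 0.568% and 24.1%), and the 4 lower at 250 nM became 0, 1 and 1 (11.4%, 18.9% and 37.5%). Higher than DMSO at 250 nM, where the count was 0, there was 1 in KURAMOCHI with equal medians (27.5%), and in COV362 there were 4 with equal medians (26.7%) and 2 with the median of ratios (8.73%). Higher at 250 nM than at 50 nM, also 0 on the deposited scale, there were 2 and 1 in KURAMOCHI (7.27% and 1.57%) and 2 and 2 in COV362 (3.42% and 0.519%) under the same scalings. Among the other settings, KURAMOCHI at 50 nM had 2 lower with a pseudocount of 0.1 (11.5%), 2 with a minimum of 10 FPKM, which left 5 lncRNAs to test (15.5%), 0 without a minimum (0.0127%), 0 in a fit of 2 groups (0.0632%) and 3 at an adjusted p under 0.05 (background 40.2%). KURAMOCHI at 250 nM had 3 with a pseudocount of 0.1 (71.6%), 3 of 5 with a minimum of 10 FPKM (82.5%), 1 without a minimum (34.5%), 1 without the trend (64.8%) and 5 at an adjusted p under 0.05 (81.3%). COV362 had 3 at 50 nM (35.5%) and 2 at 250 nM (66.6%) at a log2 fold change beyond 1, and at 250 nM it had 5 with a pseudocount of 0.1 (84.2%), 5 of 5 with a minimum of 10 FPKM (94%), and 5 in a fit of 2 groups (86.7%), without the trend (83.6%) and at an adjusted p under 0.05 (88.3%). From 50 to 250 nM the looser threshold called 1 lower in KURAMOCHI (58.2%) and 1 in COV362 (41.5%).

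Leaving out each library in turn gave 0 to 0 lower in KURAMOCHI at 50 nM, 1 to 2 at 250 nM (1 without either DMSO library), 2 to 4 in COV362 at 50 nM (2 without the second DMSO library) and 3 to 5 at 250 nM, with 0 higher throughout. In the same fits the share of all active genes called lower ran from 0.0421% to 0.919% and from 42.7% to 63.5% in KURAMOCHI, and from 30.3% to 69.7% and from 73.3% to 86.6% in COV362. Where a group was left with 1 library, that library was assumed to vary like the others. The log2 fold change of H19 at 50 nM then ranged from -0.30 to 0.16 in KURAMOCHI and from -0.0082 to 0.020 in COV362, that of PVT1 from 50 to 250 nM in KURAMOCHI from -0.30 to 0.050, and that of NEAT1 from 50 to 250 nM in COV362 from -0.079 to 0.050.

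Deviations of same-numbered libraries correlated between -0.0087 and 0.00034 in KURAMOCHI and between -0.07 and 0.028 in COV362. Such correlations over genes cannot show an offset shared by a whole library, so whether the replicate numbers pair the samples was not settled. In every group the total FPKM was higher in the first library in KURAMOCHI and in the second library in COV362. With a replicate block the count lower was 1 in KURAMOCHI at 50 nM (background 6.94%) and 1 at 250 nM (66.6%, NEAT1 at adjusted p = 0.00113), and 3 in COV362 at 50 nM (51%, PVT1 at adjusted p = 0.00153) and 3 at 250 nM (78.6%, MALAT1 at adjusted p = 0.00101).

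Log2 fold changes that turned from below to above 0 under another scaling were the following, and the scaling itself sets this shift, since it moved the median of all active genes from -1.11 at 250 nM in KURAMOCHI to 0.34, -0.0011 and -0.39, and from -1.31 in COV362 to 0.38, 0.013 and -0.46, with equal medians, median of ratios and equal totals. With equal median scaling in KURAMOCHI values above 0 were CRNDE 0.22, H19 0.33 and PVT1 0.30 at 50 nM against DMSO, and CRNDE 1.17, H19 0.59, MALAT1 0.80 and PVT1 1.41 at 250 nM against DMSO, and CRNDE 0.94, H19 0.26, NEAT1 0.071, PVT1 1.11 and TUG1 0.76 at 250 nM against 50 nM. With equal median scaling in COV362 values above 0 were CRNDE 0.91, MALAT1 0.069 and PVT1 0.51 at 50 nM against DMSO, and CRNDE 1.21, H19 0.36, MALAT1 1.21, NEAT1 0.77 and PVT1 1.10 at 250 nM against DMSO, and CRNDE 0.30, H19 0.17, NEAT1 0.83, PVT1 0.59 and TUG1 0.27 at 250 nM against 50 nM. With median-of-ratios scaling in KURAMOCHI values above 0 were CRNDE 0.094, H19 0.24 and PVT1 0.15 at 50 nM against DMSO, and CRNDE 0.68, H19 0.25, MALAT1 0.30 and PVT1 0.90 at 250 nM against DMSO, and CRNDE 0.59, H19 0.0084, PVT1 0.74 and TUG1 0.40 at 250 nM against 50 nM. With median-of-ratios scaling in COV362 values above 0 were CRNDE 0.72 and PVT1 0.32 at 50 nM against DMSO, and CRNDE 0.77, H19 0.24, MALAT1 0.76, NEAT1 0.31 and PVT1 0.65 at 250 nM against DMSO, and CRNDE 0.041, H19 0.085, NEAT1 0.57, PVT1 0.33 and TUG1 0.015 at 250 nM against 50 nM. With equal total scaling in KURAMOCHI values above 0 were H19 0.088 at 50 nM against DMSO, and CRNDE 0.23 and PVT1 0.41 at 250 nM against DMSO, and CRNDE 0.36, PVT1 0.50 and TUG1 0.16 at 250 nM against 50 nM. With equal total scaling in COV362 values above 0 were CRNDE 0.22 at 50 nM against DMSO, and CRNDE 0.24, H19 0.12, MALAT1 0.21 and PVT1 0.11 at 250 nM against DMSO, and CRNDE 0.016, H19 0.058, NEAT1 0.54 and PVT1 0.30 at 250 nM against 50 nM. How many fragments each library held is not known, so the counting error of the scarce RNAs H19, MEG3 and KCNQ1OT1 could not be estimated.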
